A study of Homo sapiens with 4 samples.

Results

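The transcripts of 10 genes that act in cytokinesis were examined in SHMT2-knockdown and control colorectal cancer cells. The genes are ANLN, RACGAP1, ECT2, KIF23, PRC1, CIT, KIF20A, KIF14, CEP55 and AURKB. They were chosen by symbol from the 26364 rows of the deposited count table, and all 10 were found and passed the filter on low counts. SW480 and SW620 are established human lines derived from colorectal carcinoma. There were 4 RNA libraries, 1 of control cells and 1 of SHMT2-knockdown cells in each line. SHMT2, a mitochondrial enzyme that turns serine into glycine, was targeted with an shRNA in a doxycycline-regulated lentiviral vector. The labels name the other libraries only as control, while the paper describes its expression comparison as one with control shRNA cells. Which hairpin was sequenced and whether the controls were given doxycycline are not given in the labels. Effects of doxycycline or of a single hairpin therefore cannot be told apart from those of SHMT2 loss.

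Cytokinesis is the step that parts the daughter cells after the chromosomes have separated. Antiparallel microtubules are bundled in the spindle midzone, the midzone signals to the cell equator, a contractile ring of actin and myosin forms there, and the ring narrows to a midbody that is finally cut by the ESCRT machinery. Anillin, the product of ANLN, holds the ring together by binding actin, myosin and septins. Transcripts of most of these genes accumulate in G2 and mitosis, so that their level in a culture follows the share of cells in those phases. In bulk RNA, fewer cells in a phase and less RNA per cell cannot be told apart.

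The promoters of genes of this class are known for 2 short elements. TTTGAA is the core of the cell cycle genes homology region, to which the DREAM and MuvB complexes bind, and CCAAT is bound by NF-Y. Of the 10 genes, 9 matched the RefSeq promoter table on GRCh38.p14, in which ECT2 and AURKB have more than 1 start, and RACGAP1 had no match. Windows of 300 bases, from 250 before to 50 after each start, were searched on both strands. TTTGAA was found for 7 of the 9 genes, in 8 of their 11 promoters, against 15.2% of all 35116 promoters. CCAAT was found for 8 of the 9 genes, in 9 of the 11 promoters, against 34.6% of all promoters. The 2 AURKB windows overlap and hold the same CCAAT, which is counted in each. Both elements were found in 6 of the 11 promoters, against 5.90% of all. Among tested genes matched to the promoter table, 13.4% had TTTGAA, 42.8% had CCAAT and 5.51% had both. For each gene with a TTTGAA before a RefSeq start, 1 stretch of 30 bases around it is printed here. The stretches show how this element sits in genes whose transcripts changed by very different amounts. ECT2 also has TTTGAA before its other start, in a window without CCAAT that is not printed. Capitals mark TTTGAA and CCAAT or their reverse complements TTCAAA and ATTGG.
ANLN, chr7:36389832-36389861, plus strand: gaaaTTCAAATTTGAAcggctgcagaggcc
PRC1, chr15:90994536-90994565, minus strand: cgtggcgcggTTTGAAattttgcggggctc
KIF23, chr15:69414282-69414311, plus strand: ctgATTGGcccgTTTGAAatgcgccaggcg
ECT2, chr3:172750608-172750637, plus strand: ttaTTTGAAacacacgcacaaCCAATcaag
CEP55, chr10:93496493-93496522, plus strand: cccTTCAAAggcggcagCCAATcggggagc
CIT, chr12:119877507-119877536, minus strand: ccgCCAATTTCAAActtccaagacctgccc
In ANLN the element occurs on both strands side by side, which makes a palindrome of 12 bases, 26 bases before the start. No CCAAT was found in the ANLN window. In KIF14 the copy of TTTGAA lies after the start, and in KIF20A and AURKB none was found. A match of letters is a description and does not show binding.

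Sequencing depth was between 5530129 and 13774288 counts per library. Depth went with treatment in opposite ways, since the knockdown library held 0.671 times the counts of the control for SW480 but 2.49 times for SW620. In knockdown cells 11.2% of the control level of SHMT2 was left in SW480 and 6.92% in SW620 (log2 fold change -3.54, standard error 0.12, edgeR adjusted p = 1.06e-167). Of 10 colorectal epithelial markers, KRT20, LGALS4 and CEACAM5 had at most 22 counts in any library and VIL1 at most 2 in SW480, while the summed level of the list was 5391 to 10480 CPM (a count divided by the TMM-scaled library size in units of 1e6 reads). KRT8 and KRT18 of this list fell and CDH1 rose at an edgeR adjusted p under 0.05, and the part of such shifts in the results on cytokinesis genes was not tested. The summed level was 20.5 to 31.3 CPM for 8 fibroblast markers, with PDGFRA at 0 in every library, and 5.27 to 11.6 CPM for 9 leukocyte markers, with CD3E, MS4A1 and HBB at 0.

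Cytokinesis transcripts were lower in SHMT2-knockdown cells than in control cells. All 10 genes were lower in both lines, against 24.7% of the 14024 genes tested, and 0 were higher in both, against 27.0%. Among all genes tested, 47.8% were lower in SW480 and 48.6% in SW620. The falls were very unequal, since ANLN kept 34.3% (SW480) and 41.4% (SW620) of its control level and KIF23 88.2% and 99.1%. At an adjusted p under 0.05 over all genes tested, 4 of the 10 fell (ANLN, RACGAP1, CEP55 and PRC1) and 0 rose, against 1.17% lower and 0.492% higher among all genes tested. Without adjustment (P of at most 0.05), 8 were lower and 0 higher, against 4.91% and 4.15%. By the DESeq2 Wald test, 2 were lower and 0 higher after adjustment, against 22 lower and 6 higher among all genes. Genes to which DESeq2 gave no adjusted p, CIT and KIF14 among them, count as not called. Without adjustment 4 were lower and 0 higher by DESeq2, against 1.27% of all genes tested lower. The median of the 10 genes on the log2 scale was -0.33 with the lines combined (0.01 for all genes tested), -0.43 within SW480 (0.0050 for all genes) and -0.28 within SW620 (0.00033 for all genes). Without ANLN the median of the other 9 was -0.32. The summed level of the 10 genes was 1384 CPM in control and 936 CPM in knockdown SW480 cells, and 1410 and 1046 CPM in SW620 cells. The edgeR model held cell line and treatment, which leaves 1 residual degree of freedom, and within a line there is 1 library per condition and no test. Only ANLN and RACGAP1 kept an adjusted p under 0.05 under every alternative that kept the cell line in the model.

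**Figure D1:**
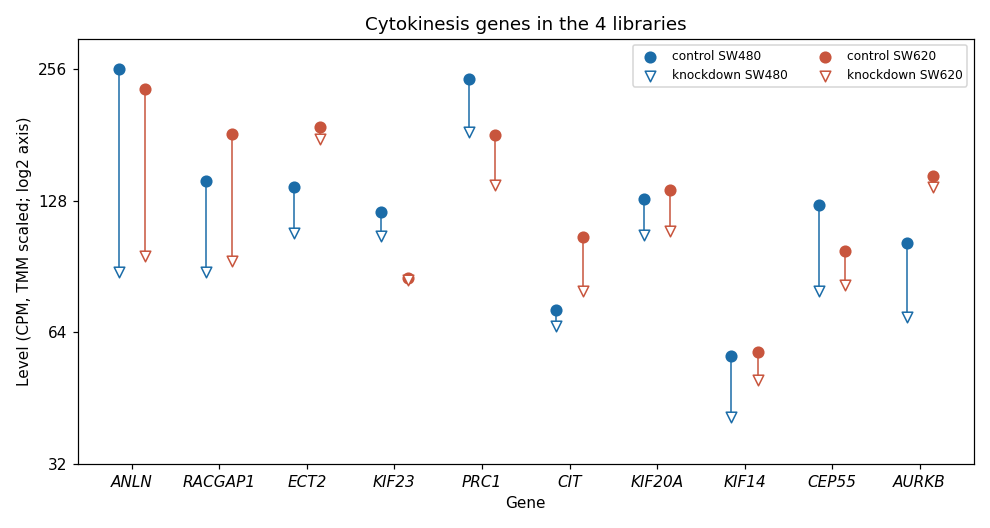
Level of the 10 cytokinesis genes in each library, in CPM on a log2 axis, with filled circles for control and open triangles for SHMT2-knockdown libraries and a line joining the libraries of a cell line. Every triangle lies below its circle, from 256 to 87.9 CPM for ANLN in SW480 down to 85.3 and 84.4 CPM for KIF23 in SW620.

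ANLN encodes the scaffold of the contractile ring. SW480 gave 2463 counts in control and 583 in knockdown cells, and SW620 gave 1256 and 1283, where the knockdown library is the deeper. Scaled for depth this was 256 and 87.9 CPM in SW480, and 230 and 95.4 CPM in SW620. Both knockdown libraries were below both control libraries, and the levels of the lines were close in each condition. The log2 fold change was -1.41 over both lines (standard error 0.12, edgeR adjusted p = 1.50e-28). ANLN ranked 4 among the 14024 genes tested by P value and 16 by the size of the fall. Without the cell line in the model, its unadjusted P value was 0.0028 and its adjusted p was 1.00.

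The share of ANLN within the group does not depend on scaling between libraries. ANLN took 18.5% of the counts of the 10 genes in control SW480 cells (Wilson 95% interval 17.9% to 19.2%) and 9.39% in knockdown SW480 cells (8.69% to 10.1%). In SW620 cells its share was 16.3% (15.5% to 17.2%) in control and 9.11% (8.65% to 9.60%) in knockdown. The intervals cover counting error only. ANLN therefore took a smaller part of the group after knockdown in each line.

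The ANLN gene is on the plus strand of chromosome 7, spanning 36389806 to 36453791 (GENCODE 29 on GRCh38, an annotation that need not be that of the authors). Its first bases overlap KIAA0895 on the opposite strand, which had 294 and 130 counts in control and knockdown SW480 cells and 223 and 517 in SW620 cells. The primers with which the study measured ANLN by qPCR are shown since they mark a part of the transcript measured independently of the sequencing.
ANLN forward primer: tgccaggcgagagaatcttc
ANLN reverse primer: cgcttagcatgagtcatagacct
The pair encloses 78 bases at positions 260 to 337 of transcript ENST00000265748.6, wholly within exon 2 of 24 and within the coding sequence, at 36396286 to 36396363 on chromosome 7. This product was found in 4 GENCODE 29 transcripts, all of ANLN.

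The partners of centralspindlin did not move alike. Centralspindlin joins the kinesin KIF23 (MKLP1) to RACGAP1 (MgcRacGAP), a protein that recruits the exchange factor ECT2 to the midzone. RACGAP1 was at 142 CPM in control and 88.1 CPM in knockdown SW480 cells, and at 182 and 93.1 CPM in SW620 cells. Both knockdown libraries were below both control libraries. It fell by 0.83 on the log2 scale (standard error 0.12, edgeR adjusted p = 6.78e-09), the 18th smallest P value of all genes tested. KIF23 was at 120 and 106 CPM in SW480 and at 85.3 and 84.4 CPM in SW620. Here the knockdown library of SW480 was above the control library of SW620, and the log2 fold change of -0.10 did not pass the test (standard error 0.13, edgeR adjusted p = 0.957). Within SW620 its log2 difference was -0.01, with a 95% counting interval from -0.17 to 0.14. The ratio of RACGAP1 to KIF23 counts, which does not depend on scaling, was 1.18 in control and 0.83 in knockdown SW480 cells, and 2.13 and 1.10 in SW620 cells. It was lower after knockdown in each line, and no test of the difference between the genes was made.

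ECT2 itself had 137 and 108 CPM in SW480 and 189 and 177 CPM in SW620. Its log2 fold change was -0.22 (standard error 0.12, edgeR adjusted p = 0.596), and the levels of the conditions overlapped across the lines. RACGAP1 is on chromosome 12 from 49976923 to 50033136 and overlaps AQP6, which had at most 5 counts in any library. Its pseudogene copy RACGAP1P had 0 counts in every library.

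PRC1, which crosslinks antiparallel microtubules, had 243 and 183 CPM in control and knockdown SW480 cells, and 181 and 139 CPM in SW620 cells. The control of SW620 and the knockdown of SW480 were at about one level. PRC1 fell by 0.39 on the log2 scale (standard error 0.11, edgeR adjusted p = 0.0409), by 0.40 in SW480 and 0.38 in SW620. The call was lost under every alternative with the cell line in the model, with adjusted p from 0.0609 (edgeR with the size factors of DESeq2) to 0.237 (DESeq2 Wald test). PRC1-AS1 lies on the opposite strand, within the PRC1 gene on chromosome 15 (90966038 to 90995629). It had 38.5% to 41.3% as many counts as PRC1 in each of the 4 libraries, and whether strand was used in counting is not given in the sources used here, so that the reads of this pair cannot be told apart.

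The kinesins KIF20A (MKLP2), which carries the chromosomal passenger complex to the midzone, and KIF14, which binds PRC1 and CIT, were lower without passing the adjusted test. KIF20A had 129 and 107 CPM in SW480 and 135 and 109 CPM in SW620, so that both knockdown libraries were below both controls. Its log2 fold change was -0.29 (standard error 0.12, edgeR unadjusted P = 0.0148, adjusted p = 0.304). KIF14 had 56.5 and 40.9 CPM in SW480 and 57.6 and 49.8 CPM in SW620, again without overlap between the conditions. Its log2 fold change was -0.34 (standard error 0.14, edgeR unadjusted P = 0.0135, adjusted p = 0.291). The share of all genes tested without such overlap is not given here, so for every gene this order is a description only.

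AURKB, the kinase of the chromosomal passenger complex, differed most between the lines in its response. It had 102 and 69.2 CPM in SW480 and 146 and 138 CPM in SW620. The log2 differences were -0.56 in SW480 and -0.09 in SW620, which are 0.48 apart (95% counting interval 0.28 to 0.68). With the lines combined, the difference was -0.32 on the log2 scale (standard error 0.12, edgeR adjusted p = 0.251). The rest of the complex was also at lower levels in both knockdown libraries than in the controls of the same line. INCENP, its scaffold, had log2 differences of -0.40 in SW480 and -0.39 in SW620 (edgeR adjusted p = 0.0582), BIRC5 (survivin) had -0.22 in each line, and CDCA8 (borealin) had -0.20 and -0.04. Of these 4 genes, AURKB among them, 0 passed the adjusted edgeR test, against 1.17% lower among all genes tested. Without adjustment (P of at most 0.05), 2 were lower, against 4.91%. By DESeq2 the counts were 0 and 1, with 1.27% of all genes tested lower without adjustment.

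The genes of the midbody gave the remaining call. CEP55, which recruits the ESCRT machinery to the midbody, had 125 and 79.5 CPM in SW480 and 98.1 and 82.1 CPM in SW620, so that both knockdown libraries were below both controls. It fell by 0.46 on the log2 scale (standard error 0.13, edgeR adjusted p = 0.0240). The fall was 0.65 in SW480 and 0.26 in SW620. The call held with the size factors of DESeq2 and was lost under the other alternatives with the cell line in the model, with adjusted p from 0.0560 (edgeR without a filter) to 0.731 (DESeq2 Wald test). CIT, the citron kinase that keeps the midbody stable, had 71.8 and 66.2 CPM in SW480 and 106 and 79.6 CPM in SW620. Its log2 fold change was -0.27 (standard error 0.13, edgeR unadjusted P = 0.0374, adjusted p = 0.490), and the control of SW480 was below the knockdown of SW620.

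**Figure D2:**
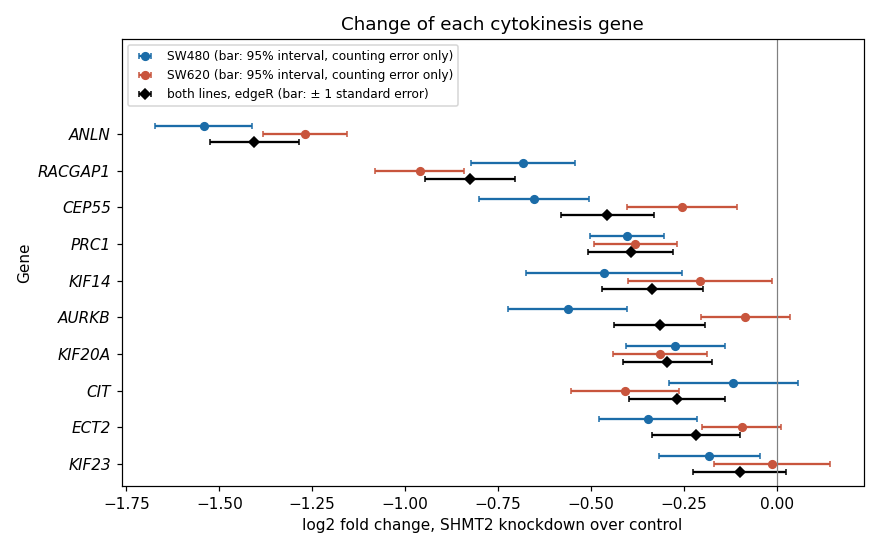
Log2 fold change of each gene, SHMT2 knockdown over control, within SW480 and SW620 (circles, bars are 95% intervals of counting error only) and over both lines (diamonds, bars are ± 1 standard error from edgeR). ANLN at -1.41 and RACGAP1 at -0.83 stand to the left of the other 8 genes, which lie between -0.46 and -0.10.

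The size of the fall was set beside each line. In SW480, the 95% counting interval of the log2 difference lay below 0 for 9 of the 10 genes, with CIT the exception, against 15.8% of all genes tested. In SW620 it lay below 0 for 7, with ECT2, KIF23 and AURKB the exceptions, against 12.5% of all genes tested. The difference between the lines had a counting interval that left out 0 for 6 genes, against 23.6% of all genes tested. For ANLN, ECT2, CEP55 and AURKB the value in SW480 was further below 0, and for RACGAP1 and CIT the value in SW620. With 1 library per line and condition this difference could not be tested against the spread between cultures.

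The genes were also compared between the cell lines over all 4 libraries. At an edgeR adjusted p under 0.05, AURKB, ECT2 and CIT were higher and KIF23 and PRC1 lower in SW620 than in SW480. Such calls are common, since 32.3% of all genes tested were higher and 31.3% lower in SW620. AURKB was 0.75 higher on the log2 scale (standard error 0.12, edgeR adjusted p = 5.29e-09), by 0.51 in control cells and 0.99 in knockdown cells. ECT2 was 0.59 higher (standard error 0.12, edgeR adjusted p = 2.17e-06) and CIT 0.41 higher (edgeR adjusted p = 0.00276). KIF23 and PRC1 each had a log2 difference of -0.41 (edgeR adjusted p = 0.00199 and 0.000716). For ANLN the difference was -0.02 (standard error 0.12, edgeR adjusted p = 0.870), and RACGAP1, KIF20A, KIF14 and CEP55 did not pass the test either. The genes higher in SW620 and those lower there thus included partners in one pathway, ECT2 in the first and KIF23 in the second.

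**Figure D3:**
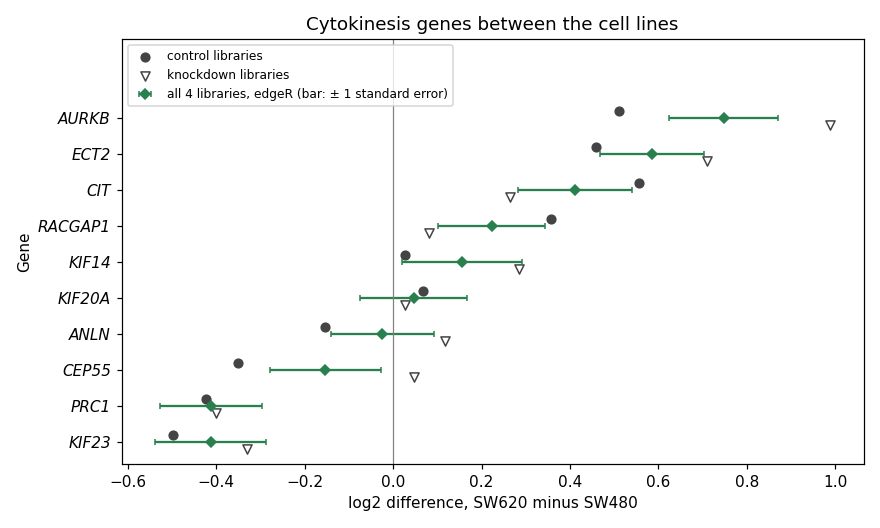
Log2 difference of each gene between the lines, SW620 minus SW480, in control libraries (circles), in knockdown libraries (triangles) and over all 4 libraries (diamonds, bars are ± 1 standard error from edgeR). AURKB at 0.75 and ECT2 at 0.59 are the highest, and PRC1 and KIF23 at -0.41 the lowest.

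The other genes lie at 172750682 to 172821474 on chromosome 3 (ECT2), 69414246 to 69448427 on 15 (KIF23), 119685790 to 119877291 on 12 (CIT), 138178719 to 138187715 on 5 (KIF20A), 200551497 to 200620734 on 1 (KIF14), 93496632 to 93529092 on 10 (CEP55) and 8204733 to 8210600 on 17 (AURKB), in the same annotation.

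Levels of different genes were compared per kilobase of exon, with the exons of all GENCODE 29 transcripts of a gene merged. For ANLN this length was 6012 bases, against 4787 for transcript ENST00000265748.6. The order of the genes depends on this choice of length. In control cells, the mean of the lines was highest for AURKB at 55.4 CPM per kilobase (45.7 in SW480 and 65.1 in SW620). ANLN at 40.5, PRC1 at 38.3, RACGAP1 at 31.6 in SW480 and 40.5 in SW620, CEP55 at a mean of 34.1, KIF20A at 33.5 and ECT2 at 29.6 CPM per kilobase followed, and neighbours in this order overlapped between the lines. KIF23 at 15.6, KIF14 at 7.84 and CIT at 6.71 CPM per kilobase were lower, with KIF14 and CIT overlapping. In knockdown SW480 cells ANLN was at 14.6 CPM per kilobase, below KIF23 at 16.1, and in knockdown SW620 cells at 15.9, above KIF23 at 12.8. By this length, ANLN was thus close to KIF23 after knockdown, while in control cells it was well above it.

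Genes that act with the 10 in the ring and in its cutting were examined with lists. Septins bind anillin at the ring. The deposited table holds rows named as dates, and the rows 1-Sep to 14-Sep were read as SEPT1 to SEPT14, on the assumption that the symbols had been converted. Of the 13 septins listed, 10 were tested. By edgeR 0 fell and 0 rose at an adjusted p under 0.05, and 0 were lower or higher without adjustment, which was also so by DESeq2. Among all genes tested, 4.91% were lower and 4.15% higher by edgeR without adjustment. With 10 genes, 0 is close to these shares. The median log2 fold change was 0.06, with values from -0.66 to 0.22. The abundant SEPT2 had 0.15 (edgeR adjusted p = 0.771) and SEPT9 -0.08 (edgeR adjusted p = 0.953).

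Of 19 genes of ESCRT and abscission, 18 were tested, and the median log2 fold change was 0.03. At an edgeR adjusted p under 0.05, 1 fell and 0 rose, and the counts were also 1 and 0 without adjustment, a share near the 4.91% lower among all genes tested. By DESeq2 these were 0 and 0 after adjustment and 1 and 0 without. The gene was CHMP2B, a subunit of ESCRT-III, with 663 and 289 counts in control and knockdown SW480 cells and 230 and 312 in SW620 cells (log2 fold change -0.76, standard error 0.14). DESeq2 gave CHMP2B no adjusted p, so for this gene the DESeq2 count after adjustment is not a failed test. PDCD6IP (ALIX), which binds CEP55 at the midbody, had a log2 fold change of -0.07 and did not pass the test.

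The lists of other cell cycle genes gave medians close to that of the cytokinesis genes. The median log2 fold change was -0.31 for 13 mitotic kinases, cyclins and G2/M transcription factors, -0.29 for 20 genes of kinetochore, spindle and checkpoint, and -0.30 for 16 genes of replication licensing. At an edgeR adjusted p under 0.05, 1, 2 and 2 genes fell and 0 rose in any of these lists (1.17% of all genes tested fell), and without adjustment 8, 12 and 12 were lower and 0 higher (4.91% lower among all genes tested). By DESeq2, 0 passed after adjustment, and 6, 6 and 8 were lower and 0 higher without it (1.27% lower among all genes tested). The genes that fell by edgeR were CDK1, CDC20, NUF2, CDC6 and MCM10, with log2 fold changes between -0.56 and -0.43. DESeq2 gave NUF2 and MCM10 no adjusted p, so for these genes its count after adjustment is not a failed test. FOXM1 and MYBL2, transcription factors that drive G2/M genes, had -0.28 and -0.31 (edgeR adjusted p = 0.275 and 0.148). The fall of ANLN and RACGAP1 was larger than that of any tested gene in these 3 lists, a comparison of sizes with no test.

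**Figure D4:**
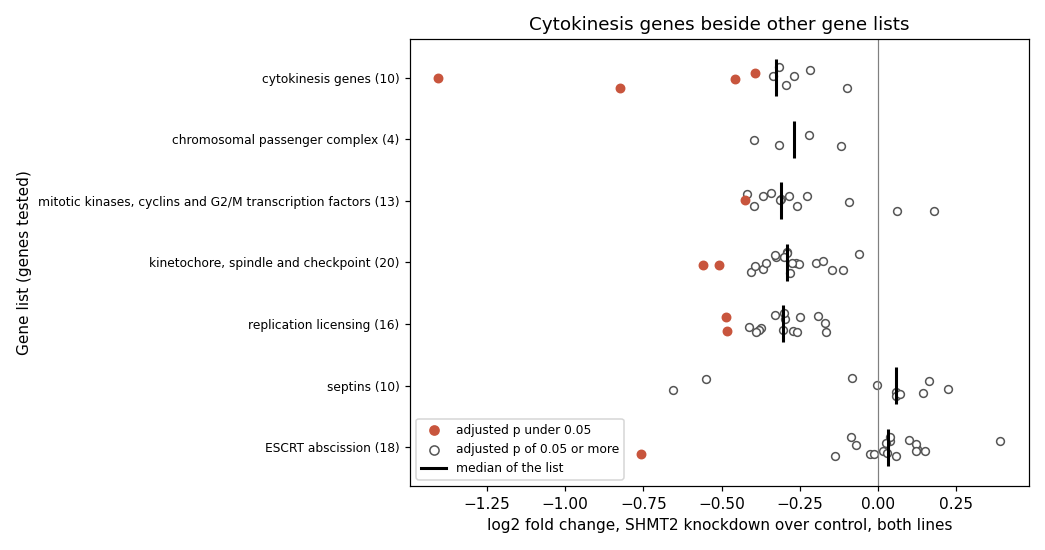
Log2 fold change over both lines of each tested gene in 7 lists, with filled points for an adjusted p under 0.05 and a bar at the median of the list. AURKB is in the cytokinesis list and also in that of the chromosomal passenger complex. The cytokinesis genes have a median of -0.33 with ANLN at -1.41 far to the left, the other cell cycle lists have medians of -0.31 to -0.27, and the medians of the septins and ESCRT genes are 0.06 and 0.03.

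The genes whose pattern was most like that of ANLN were sought by the distance between centred log2 profiles over the 4 libraries, among 10185 genes with a mean of at least 10 CPM. The 5 nearest were UHRF1 (distance 0.39), INSIG1 (0.59), ISOC1 (0.62), RWDD1 (0.62) and FAM210A (0.63). UHRF1 recruits DNMT1 to hemimethylated DNA, and INSIG1 holds back the processing of SREBP. Their log2 fold changes over both lines lay between -1.76 and -0.97. RACGAP1 ranked 9 by this distance, CEP55 70 and KIF14 176, and the other cytokinesis genes ranked 191 or lower, with KIF23 at 1962. By Pearson correlation over the same 4 libraries, 0 of the 5 nearest genes were the same. UHRF1 then ranked 12 (r = 0.993), and INSIG1, ISOC1, RWDD1 and FAM210A ranked from 157 to 188. Of the cytokinesis genes, KIF20A ranked highest by correlation at 51, and RACGAP1 ranked 128.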

How the data were processed

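RNA was extracted with Trizol and made into Illumina TruSeq libraries, per the labels. The authors deposited raw read counts per gene symbol, with no normalization, for 4 libraries. The submitters' processing notes name Bowtie 0.12.2 and hg18. Their roles, the counting program, the annotation and strand use are not given in the sources used here, and the paper's methods describe a microarray, which the whole-number table is not. In 28 rows the symbol reads as a date.

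A gene was tested if 2 or more libraries held 10 or more counts of it, with TMM scaling, with edgeR 4.0.16 in R 4.3.3 (quasi-likelihood test, terms for cell line and treatment, two-sided, Benjamini-Hochberg adjustment over 14024 genes). The cell line pairs the libraries. Deviations from the condition means correlated between the 2 libraries of a line across genes (Pearson r = 0.961). The libraries are single cultures. With the cell line in the model, p-values rest on how far the knockdown effect differed between the lines and on one dispersion trend for all genes. They do not measure the spread between cultures. Within a line, log2 differences used a prior count of 2, and standard errors came from counts only. On simulated data for this comparison with log2 changes of 1, edgeR recovered 83.8% of 198 changed genes among 13821 and called 5 unchanged genes, and DESeq2 1.42.0 recovered 58.1% and called 6. The simulation gave every gene the same dispersion and each changed gene the same change in both lines. It therefore does not show how many calls in the real libraries are false. Smaller changes were not simulated.

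Alternatives were no cell line term, no filter, 50 counts in 2 libraries, DESeq2 size factors, the DESeq2 Wald test, thinning of every library to the smallest total, and leaving out a line. The genes and lists were chosen with earlier results of these data known. Named were the 10 genes, SHMT2, the genes of each list with an adjusted p under 0.05 (up to 6) or otherwise the smallest p, and the 5 nearest to ANLN. Other list genes were named by function after their values were seen. Sequences are from RefSeq (GRCh38.p14), positions from GENCODE 29, and primers from the study's supplement.

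The list of actin and myosin genes of the ring is not reported here.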

Additional observations from a re-analysis of the deposited data

Results flagged for a closer look

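SEPT6 (row 6-Sep) had log2 differences of 0.54 in SW480 and -0.01 in SW620, which have opposite signs, although the 95% counting interval in SW620 (-0.16 to 0.14) holds 0. They are -0.56 apart as SW620 minus SW480 (95% counting interval -0.87 to -0.24). The difference between the lines was not tested, with 1 library per line and condition. None of the 10 cytokinesis genes had opposite signs in the lines.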

How the results depend on the processing

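With the pairing by cell line left out (no replicate block), edgeR called 0 genes lower and 0 higher after adjustment (17 and 1 without adjustment), and of the 10 cytokinesis genes 0 were called after adjustment and 2 without it. With a filter of 50 counts, 54 genes were lower and 15 higher. With thinned libraries these were 45 and 11, and by the DESeq2 Wald test 22 and 6, against 164 and 69. DESeq2 gave no adjusted p to a part of the genes, CIT and KIF14 among them, and these count as not called. The DESeq2 counts after adjustment are therefore not over the same genes as those of edgeR. Of the 10 genes, 2 were called lower under no filter, the filter of 50 counts, DESeq2 and thinning, and they were ANLN and RACGAP1 each time. By DESeq2, 4 were lower at an unadjusted P, against 1.27% of all genes tested. The size of the p-values moved more between settings than the fold changes did. With the filter of 50 counts, the edgeR adjusted p was 1.74e-05 for ANLN, 0.00412 for RACGAP1 and 1.93e-08 for SHMT2. The causes were not tested. The median of the 10 genes on the log2 scale stayed negative in all these settings, and with a line left out it ranged from -0.43 to -0.28. The calls between the lines were kept in all settings with a term for the line but the DESeq2 Wald test, in which CIT was lost. By Pearson correlation, 0 of the 5 genes nearest to ANLN were among the 5 most alike, with UHRF1 at rank 12. With 1 library per line and condition, depth limits single-line values to counting error, and the spread between cultures is unknown.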
